A study of Mus musculus with 24 samples.

Results

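Open chromatin of mouse haematopoietic progenitors that had lost Utx and received a guide RNA against Smarca4 was compared with that of control cells that had neither perturbation. The comparison used 4 ATAC-seq peak lists, 2 of Utx knockout (KO) cells with the Smarca4 guide and 2 of Utx wild-type (WT) cells with an empty guide vector. Peaks of the 4 libraries that overlapped or touched were merged into 59051 regions. A region was called lost when both control libraries and neither combined-perturbation library held a peak. Gained regions showed the mirror pattern, and kept regions had a peak in all 4. Of 43655 regions held by both control libraries, named control regions here, 11252 were lost, which is 25.8%. Each lost region was then classed by the 2 groups with 1 perturbation each, Utx KO with empty vector and Utx WT with the Smarca4 guide. It was lost in either single perturbation when both libraries of at least 1 of those groups lacked a peak (7026 regions), and lost only when both were perturbed when each group still held it in at least 1 library (4226 regions, 9.68% of control regions).

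All cells were lineage-negative bone marrow progenitors of C57BL/6 mice, obtained with a lineage depletion kit, and all cells of the set carried Cas9, the controls included. The Utx genotypes were Utx+/+ and Utx-/-, and the only Smarca4 guide was the one numbered 2 in the labels. The labels of these samples carry no culture protocol, but one attached to the separate Chd4 set describes editing of Brg1 in both Utx genotypes and gives 7 days in semi-solid medium, 5 days in liquid medium and ATAC-seq 6 days after transduction. How Utx was deleted, the editing rate, the sex of the mice and whether replicates were separate animals or cultures are not given in the sources used here. The cells were analysed as pools, so fewer cells with an open region and less opening in each cell cannot be told apart, and the p-values measure only the spread between these samples, which may be technical. The series holds 24 samples, 22 with a peak list, including H3K4me1 and PU.1 ChIP-seq of unedited Utx WT and KO progenitors.

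Utx, encoded by the X-linked gene Kdm6a, is a histone H3K27 demethylase that also works without its enzymatic activity as part of the COMPASS-like complexes with Kmt2c or Kmt2d, which place H3K4me1 at enhancers. Smarca4 encodes Brg1, an ATPase of the BAF remodelling complexes, which slide and evict nucleosomes and thereby open enhancers and promoters to transcription factors such as PU.1, the ETS factor encoded by Spi1. In bone marrow progenitors both genes act on the balance of myeloid, erythroid and lymphoid programmes.

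Most lost regions were distal, but 402 RefSeq promoters of 366 genes lay under one. RefSeq promoters of GRCm38.p6 are shown for 3 lost regions. One set of bases is given for 1 region lost only when both were perturbed, 1 lost in Utx KO alone and 1 lost in both singles. Each shows the 250 bases before the annotated start, 5′ to 3′ on the gene's strand. Capitals mark matches to the letters searched, on either strand and with overlaps allowed. These were AGATAA for GATA factors, TGTGGT for RUNX factors, GAGGAA for the PU.1 type of ETS factor and CCAAT for the factor NF-Y.
Epor promoter, chr9:21963577-21963826, minus strand, lost only when both were perturbed: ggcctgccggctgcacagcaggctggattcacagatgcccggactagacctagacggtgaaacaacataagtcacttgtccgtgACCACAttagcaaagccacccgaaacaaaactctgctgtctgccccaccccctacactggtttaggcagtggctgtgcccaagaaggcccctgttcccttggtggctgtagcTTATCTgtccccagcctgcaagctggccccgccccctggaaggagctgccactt
S100a8 promoter, chr3:90668821-90669070, plus strand, lost already in Utx KO with empty vector: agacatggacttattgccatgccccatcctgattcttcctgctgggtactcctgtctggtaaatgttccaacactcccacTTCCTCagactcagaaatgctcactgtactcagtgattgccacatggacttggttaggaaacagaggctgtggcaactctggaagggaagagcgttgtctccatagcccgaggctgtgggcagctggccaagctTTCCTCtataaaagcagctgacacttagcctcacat
Gp9 promoter, chr6:87777820-87778069, plus strand, lost already in both single perturbations: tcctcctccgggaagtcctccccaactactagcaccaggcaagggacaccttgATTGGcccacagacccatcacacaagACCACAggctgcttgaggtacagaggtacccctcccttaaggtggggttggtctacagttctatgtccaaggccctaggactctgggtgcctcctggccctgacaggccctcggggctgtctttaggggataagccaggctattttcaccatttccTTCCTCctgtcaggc

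Epor encodes the erythropoietin receptor, S100a8 a protein of neutrophils and Gp9 a platelet glycoprotein. At the Epor promoter, inside the region chr9:21963298-21963838, the peak was 516 and 522 bp wide in the control libraries, 405 and 361 bp in Utx KO with empty vector, and 256 and 423 bp in Utx WT with the guide. Neither combined library held a peak there, so every single-perturbation library had a narrower peak than both controls before the peak was absent from both combined libraries. The region carried H3K4me1 in both WT and both KO ChIP libraries and PU.1 in none of 3 WT and none of 3 KO libraries. At the S100a8 promoter, in chr3:90668756-90669602, peaks were 333 and 847 bp wide in the controls, 447 and 328 bp in Utx WT with the guide, and absent from both Utx KO empty libraries. Here H3K4me1 and PU.1 were held in all WT and KO libraries. At Gp9 the region chr6:87778019-87779010, 992 and 290 bp wide in the controls, was absent from all libraries with a perturbation. That region reaches only the last stretch of the printed Gp9 promoter, whose marked NF-Y and RUNX letters lie before it.

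The combined-perturbation peak lists were the shortest of the 4 groups. After removal of intervals off the main chromosomes they held 35927 and 29858 peaks, against 50796 and 50884 in the controls, 40424 and 40974 in Utx KO with empty vector and 41970 and 46141 in Utx WT with the guide. The combined group had 32892.5 ± 4291.43 peaks (mean ± SD, n = 2) and the controls 50840 ± 62.2, and the groups did not overlap (exact permutation test, two-sided, p = 0.333, the smallest that 2 against 2 allows). Of the control regions, 79.8% and 80.4% were held by the Utx KO empty libraries, 84.5% and 88.8% by the Utx WT libraries with the guide, and 73.2% and 60.0% by the combined libraries. Control regions held by combined replicate 1 alone numbered 6223, those held by replicate 2 alone 444, so most regions just outside the definition of lost rest on the shorter list of replicate 2. These had a median control peak width of 387.5 and 406 bp, next to 336.5 bp for lost and 751 bp for kept regions.

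Gains were few, with 309 regions, 1.17% of the 26455 held by both combined libraries, and 25736 regions were kept. The log2 ratio of lost to gained was 5.19, and single pairs of 1 control and 1 combined library, a ratio of another form, gave 2.79 to 3.43 (SD 0.27). The lists carry no score and their depth is unknown. When every list was trimmed to the length of the shortest by keeping its widest peaks, 2793 regions were lost and 2053 gained, a log2 ratio of 0.44. Without combined replicate 1 there were 17497 losses and 2027 gains, and without its replicate 2 there were 1420 gains. Without control replicate 1 there were 17015 losses, and without control replicate 2 there were 590 gains. Trimming to equal length pushes losses and gains towards balance by construction, so it cannot show what part of the excess follows list length. Keeping the widest 50% of each list, which leaves their lengths unequal, gave a log2 ratio of 5.88. The part of sequencing depth in the excess was not tested.

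Among the 11252 lost regions, 4041 (35.9%) were missing from both Utx KO empty libraries only, 933 (8.29%) from both Utx WT libraries with the guide only, and 2052 (18.2%) from both groups. Regions lost only when both were perturbed made up 37.6% of the lost regions. That class is broad, since 1684 of its members (15.0% of lost regions) were held by all 4 single-perturbation libraries, and the other members were missing from 1 library of at least 1 group. Without combined replicate 1 the class rose to 9582 regions, 54.8% of those lost, and each other library left out moved it by less than 1.5 times. All classes share the control libraries.

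**Figure D1:**
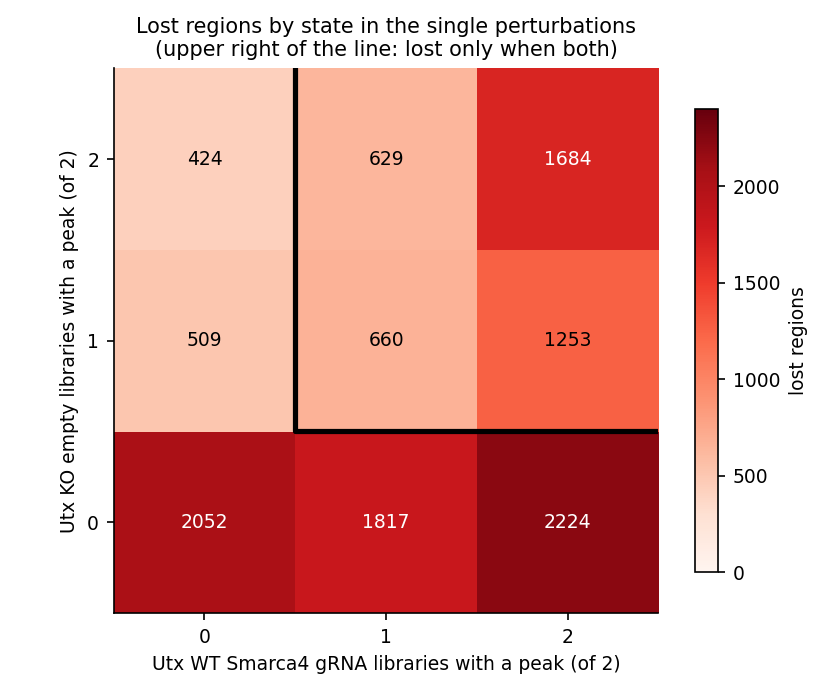
Lost regions by the number of Utx KO empty libraries (vertical) and Utx WT Smarca4 gRNA libraries (horizontal) that held a peak, with colour and number giving the count of regions. The 4 cells beyond the black line are the regions lost only when both were perturbed, led by the 1684 held by all 4 libraries, and the bottom row holds the 3 counts with no peak in Utx KO empty, led by 2224.

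Lost regions were narrow and distal. Their median merged width was 392 bp, 431 bp for those lost only when both were perturbed and 373 bp for those lost in either, against 850 bp for kept regions, which are wider partly by construction because they merge peaks of 4 libraries. Within 1 kb of either end of a protein-coding gene lay 7.78% of lost, 21.4% of gained and 41.0% of kept regions. The peaks that the combined libraries did hold were correspondingly more often at gene ends, 33.0% and 37.1% against 25.8% and 25.3% in the controls (exact permutation test, two-sided, p = 0.333, the smallest possible). Losses spread over all autosomes at similar rates, from 23.8% of control regions on chromosome 4 to 27.3% on chromosome 1, and reached 21.1% on X, where Kdm6a lies.

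Loss differed with peak width in the controls, the only graded value the lists hold. In 5 bands of mean control width with like numbers of regions, 63.1% of the narrowest regions (200 to 334 bp) were lost and 38.4%, 19.4%, 7.17% and 0.962% of the successively wider ones. The share of losses found only when both were perturbed moved the other way. It rose from 26.3% of lost regions in the narrowest band through 44.8%, 50.9% and 56.5% to 73.8% in the widest. Wide control peaks were thus rarely lost, and those that were had mostly been held by at least 1 library of each single perturbation. In the widest band these were 62 of 84 lost regions, of which 36 were held by all 4 single-perturbation libraries. In the fourth band they were 354 of 626, of which 184 were held by all 4. Widest of all among regions lost only when both were perturbed, by control replicate 1, were regions inside Stam2, which encodes an endosomal sorting adaptor, at Ifitm1, an interferon-induced membrane protein gene, and inside Drc7, a gene of the ciliary dynein regulatory complex.

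**Figure D2:**
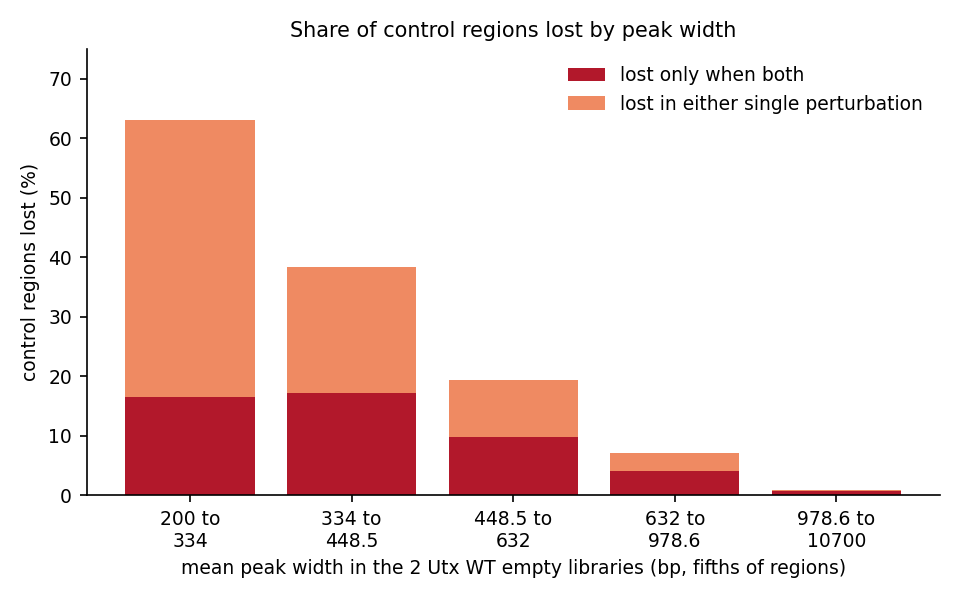
Share of control regions lost (vertical, %) in 5 bands of the mean peak width in the 2 control libraries (horizontal, bp), split into regions lost only when both were perturbed (dark) and lost in either single perturbation (light). The bars fall from 63.1% to 0.962%, and the dark part makes up 26.3% of the first and 73.8% of the last.

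At the Drc7 region, chr8:95058298-95059988, peaks were 1668 and 1564 bp wide in the controls and 1507 and 1586 bp in Utx WT with the guide. In Utx KO with empty vector they were 296 and 446 bp wide, and both combined libraries held none. The Utx KO peaks were well under the other single-perturbation peaks, which lay close to the controls. Stam2 (chr2:52696422-52698998) went from 2545 and 1161 bp in the controls to 618 bp in Utx KO empty replicate 1 and none in replicate 2, with 667 and 2496 bp after the guide alone. Of the widest regions lost in either, the one inside Foxa2 (chr2:148043476-148045225), a pioneer transcription factor gene of endoderm, was 1636 and 1700 bp in the controls, 1073 and 2454 bp after the guide alone and absent from Utx KO empty.

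Across the 1684 regions held by all 4 single-perturbation libraries, peak widths were smaller in each single perturbation than in the controls. The median width was 391 and 442 bp in the controls, 299 and 296 bp in Utx KO with empty vector, a mean change of -28.6%, and 347 and 380 bp in Utx WT with the guide, a change of -12.7%. Neither group overlapped the controls. These regions were chosen from the same peak calls that give the widths, so no test is given. At the 24956 regions held by all 8 libraries the medians were 717.5 and 807 bp in the controls, 686.5 and 681 bp in Utx KO (-10.3%), and 738 and 777 bp with the guide (-0.623%). With control width held between 448.5 and 632 bp, widths relative to the control mean were 0.624 and 0.625 in Utx KO and 0.804 and 0.875 with the guide at the lost regions, against 0.930 and 0.925, and 0.964 and 1.01, at kept regions. Because control width sets both the band and the ratio, and the choice of lost regions used these calls, regions that were wide in the controls by chance add to these reductions, by an amount that was not tested.

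**Figure D3:**
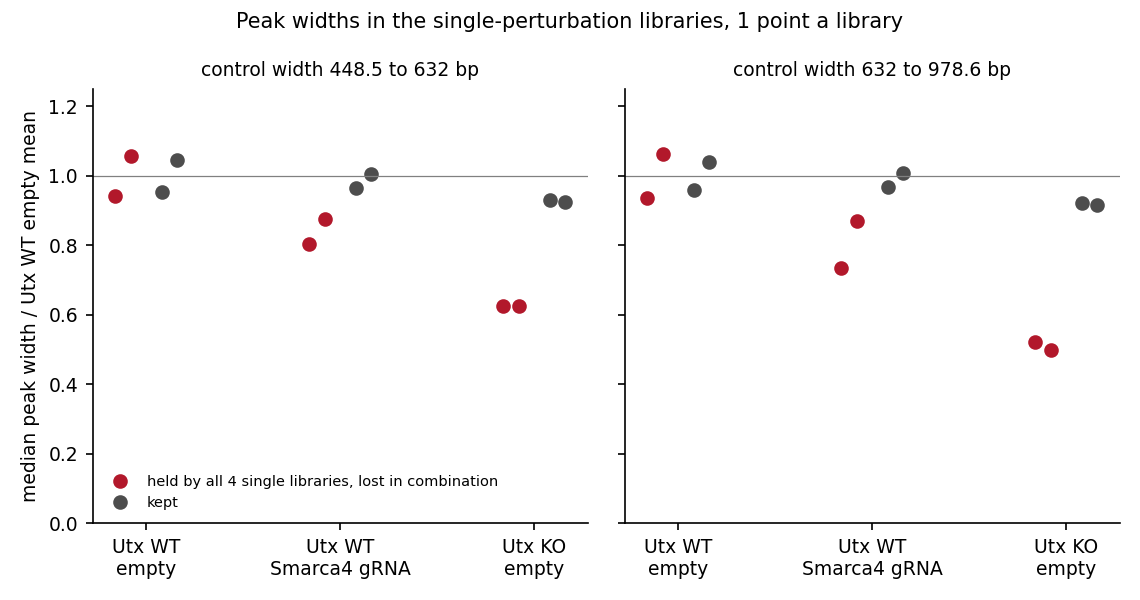
Median peak width of each library relative to the mean of the 2 control libraries (vertical, ratio), for regions held by all 4 single-perturbation libraries and lost in combination (red) and regions held by all 8 libraries (grey, kept), in 2 bands of control width. In the left band the red Utx KO empty points sit at 0.624 and 0.625 and the grey ones at 0.930 and 0.925, and in the right band the red ones sit at 0.520 and 0.497.

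H3K4me1 and PU.1 lists of unedited progenitors were not used to choose the regions. Regions lost only when both were perturbed held an H3K4me1 island in 66.4% ± 7.56 of cases in the WT libraries and 55.6% ± 2.83 in the KO libraries (mean ± SD, n = 2 each), whereas kept regions held one in 82.0% and 81.1%. Taken as the difference from kept regions of the same library, the class lay at -15.5 ± 0.232 percentage points in WT and at -25.5 ± 0.359 in KO. The KO minus WT difference on this scale was -9.95 points, with no overlap between genotypes (exact permutation test, two-sided, p = 0.333, the smallest possible). The same difference was -8.96 points at regions lost in Utx KO empty only and -11.0 at those lost in Utx WT with the guide only. At those lost in both singles it was -12.3, so the class lost only when both were perturbed lay within the range of the other lost classes. For gained regions it was -1.39 points (exact p = 1). In each of the 5 width bands both KO libraries lay below both WT libraries at regions lost only when both were perturbed. Mean KO minus WT differences there were -8.47, -11.6, -12.7, -13.0 and -8.87 points from the narrowest to the widest band. At kept regions the genotypes overlapped in every band, with mean differences of -4.20, -4.16, -4.46, 0.0534 and 2.29 points. In the first 3 bands the mean at kept regions thus fell as well, though by less. The distance from kept regions within WT was itself smaller at like width. In WT 59.3% of the class and 55.6% of kept regions held an island in the narrowest band, then 65.1% and 67.6%, 74.0% and 76.6%, 79.9% and 84.1%, and 83.9% and 92.3% in the widest.

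PU.1 did not show that gap. Regions lost only when both were perturbed held a PU.1 island in 52.2% ± 0.603 of cases in WT and 51.9% ± 3.05 in KO libraries (n = 3 each), with kept regions at 79.0% and 79.5%. Relative to kept regions the class lay at -26.8 points in WT and -27.6 in KO (exact permutation test, two-sided, p = 0.3). At like width the distance in WT was smaller, with 50.2% against 52.2% of kept regions in the narrowest band 49.8% against 62.8% in the second and 61.1% against 81.3% in the fourth. In the fourth band all 3 KO libraries lay below all 3 WT libraries at the class, by a mean of -3.48 points, and in the other 4 bands the genotypes overlapped. At regions lost in either the KO minus WT difference on this scale was -1.15 points, without overlap (exact p = 0.1, the smallest that 3 against 3 allows). Of all lost regions 61.9% carried H3K4me1 in both WT libraries and 47.1% carried PU.1 in all 3, and 18.9% had neither mark in any WT library, against 6.61% of kept and 47.6% of gained regions.

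**Figure D4:**
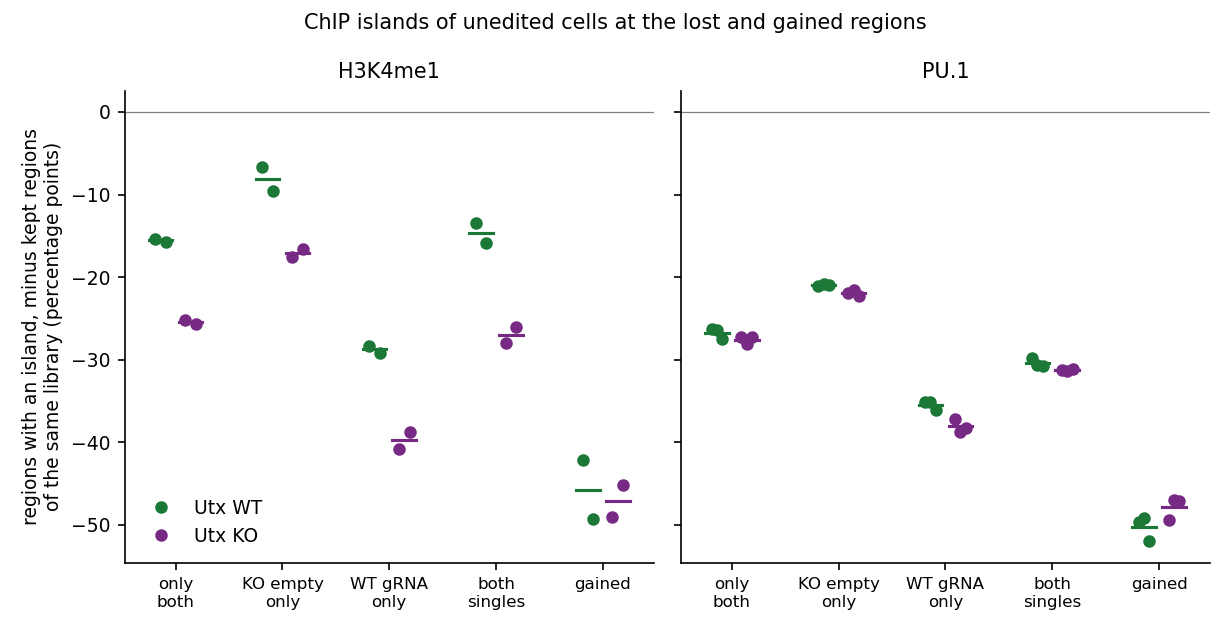
Percentage of regions of each class with an H3K4me1 (left) or PU.1 (right) island minus that of kept regions in the same library (vertical, percentage points), 1 point a library with the mean as a bar. At regions lost only when both were perturbed the Utx KO H3K4me1 libraries average -25.5 points and the Utx WT ones -15.5, and the PU.1 means are -27.6 and -26.8.

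A separate ATAC-seq set of Utx WT cells gave a second view of the same regions. Its 2 empty-vector libraries held 44.3% and 31.9% of regions lost only when both were perturbed, 34.1% and 26.4% of those lost in either, 16.2% and 12.0% of gained and 86.4% and 79.4% of kept regions. At control widths of 448.5 to 632 bp the first and last of these classes were held at 51.7% and 38.1%, and 79.8% and 69.8%. Each of these Utx WT libraries thus lacked a peak at most of the regions lost only when both were perturbed. With a guide against Chd4, the NuRD remodelling ATPase, the set held 27.3% and 14.1% of them and 79.3% and 63.2% of kept regions.

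The targeted genes were open in every library of the set. Kdm6a (chromosome X, 18160862 to 18279936) kept its 3 control regions, and the Utx KO libraries held peaks in its gene span, so the lists do not report on the deletion. Smarca4 (chromosome 9, 21616106 to 21704230) kept the region at its gene end, chr9:21615518-21616849, and lost chr9:21609920-21610282, 5823 bp outside the gene, only when both were perturbed. That distal peak was 363 bp wide in both controls, 269 and 233 bp in Utx KO empty and 342 and 284 bp after the guide alone. Spi1 lost 0 of 4 control regions, Gata2 0 of 6, and Gata1, the master regulator of erythropoiesis, 1 of 3, in the class missing from both Utx WT libraries with the guide. As for cell identity, Runx1, Kit, Cd34 and Spi1 held 42, 23, 12 and 4 control regions and Mpo, a granulocyte enzyme gene, was nearest to none. Cd3e, Pax5, Col1a1 and Cdh5, which mark T cells, B cells, stroma and endothelium, held 1 each.

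Regions were assigned to the nearest protein-coding gene span, which names a neighbour and not a target. Lost regions fell at 5805 genes, 3063 of them with a region lost only when both were perturbed, and 398 genes had 5 or more lost regions. Zfhx3 and Zmiz1 led with 17 lost of 32 and of 41 control regions, 6 and 7 of them lost only when both were perturbed. They encode a zinc-finger homeobox factor and a transcriptional coactivator of the PIAS family. Nav1, encoding a microtubule-associated neuron navigator, lost 13 of 24, all of them missing from Utx KO empty only. Runx1, which encodes a core haematopoietic transcription factor, lost 13 of 42, 4 only when both were perturbed. These genes hold many regions, and their counts are to be read against the 25.8% and 9.68% of all control regions.

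Among genes with most regions lost only when both were perturbed, the class took 7 each at Zmiz1, Mtss1, Msrb3, Tomm20 and Id2 and 6 each at Zfp36l1, Klf7, Ripor2, Zfp521 and St6galnac3. Zfp36l1, encoding an RNA-binding protein that promotes decay of AU-rich transcripts, had 8 control regions, of which 6 were lost. All 6 were in the class lost only when both were perturbed, and 4 of them were held by all 4 single-perturbation libraries. The 6 lost regions lay 23279 to 71292 bp from the gene on chromosome 12. The widest, chr12:80083379-80084480, was 790 and 1102 bp in the controls, 293 and 320 bp in Utx KO empty, 440 and 703 bp after the guide alone and absent in combination. At chr12:80059661-80060724 the widths were 887 and 1064 bp, then 598 and 369 bp, then 841 and 865 bp. Both regions thus had their narrowest peaks in Utx KO empty, and both held H3K4me1 and PU.1 islands in every ChIP library.

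Klf7, a Krüppel-like factor gene, and Id2, an inhibitor of helix-loop-helix factors, lost 9 of 16 and 12 of 37 control regions. Of the latter, chr12:25462697-25463172 was held by all 4 single-perturbation libraries at 401, 320, 371 and 355 bp, close to the 352 and 476 bp of the controls. That region lies far outside Id2, which spans 25093799 to 25096092 on chromosome 12. Msrb3, encoding a methionine sulfoxide reductase, lost 8 of 16, of which 7 were lost only when both were perturbed. Mtss1, encoding a membrane and actin scaffold, lost 14 of 33, of which 7 were in the same class.

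Lists of lineage and pathway genes were described by counts beside the background of 25.8% lost, 9.68% lost only when both were perturbed and 1.17% gained. Erythroid genes lost 13 of 34 control regions (38.2%), 9 of them only when both were perturbed (26.5%). All control regions of the same width bands lost 26.9% and 9.89%. The single-perturbation libraries held 29, 27, 30 and 30 of the 34 erythroid regions, the combined libraries 21 and 14, so the low counts stood in the combined group, most in replicate 2. With lists of equal length 23.8% of erythroid and 10.8% of all control regions were lost, and without combined replicate 1 they were 58.8% and 40.0%.

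Of the 9 erythroid regions lost only when both were perturbed, 2 each lay at Hbb-bt, Ank1 and Tfrc. These are genes of beta-globin, the ankyrin of the red cell membrane and the transferrin receptor. Epor, Car2, carbonic anhydrase, and Hemgn, hemogen, had 1 each. At Hbb-bt the region chr7:103808978-103809595, 2928 bp from the gene, was 582 and 533 bp in the controls, 367 bp in Utx KO empty replicate 1, absent from replicate 2, and 598 and 605 bp after the guide alone. The Utx WT peaks with the guide were as wide as the controls, and no combined library held one. Hbb-bt has near-identical neighbours, whose reads the mapping may have shared. At Ank1 the region chr8:23149387-23149978, 523 bp from a gene end, was 566 and 547 bp in the controls, 310 and 246 bp in Utx KO empty and 519 and 460 bp after the guide alone. Klf1, Sptb and Nfe2, the last a globin locus factor, lost 0 of 1, 0 of 3 and 0 of 5.

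Stroma and endothelium genes lost 22 of 55 control regions (40.0%), 13 only when both were perturbed (23.6%), against 33.5% and 11.8% of all control regions of the same widths. At equal list length 22.2% of them were lost, against 10.8% of all. Of these losses 13 lay at 2 genes. Pecam1, an adhesion molecule of endothelium, platelets and leukocytes, lost 8 of 11, 5 of them only when both were perturbed, and Cxcl12, a niche chemokine gene, lost 5 of 7. At Pecam1 the region chr11:106704714-106705142 was 381 and 427 bp in the controls, 290 and 302 bp in Utx KO empty and 449 and 389 bp after the guide alone. Of the 11 control regions of Pecam1 the Utx KO empty libraries held 4 and 7, the Utx WT libraries with the guide 6 and 9, and the combined libraries 3 and 1. The other 9 losses lay at Pdgfra (3 of 11 control regions), Runx2 (3 of 13), Pdgfrb (2 of 4) and Sp7 (1 of 2), while Kdr lost 0 of 4 and Col1a1, Vcam1 and Cdh5 0 of 1 each. Whether the mixture of cell types differed between the cultures, and its part in these losses, was not tested.

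Most other lists lay within a few points of the background, and those below it included Utx and COMPASS, housekeeping and mast cell genes. Growth and tumour suppression genes lost 72 of 241 (29.9%), against 26.7% of all control regions of the same widths. With the widest 50% of peaks they lost 21.9%, against 23.6% of all, and at equal list length 10%, against 10.8%. Among them Bcl2, an apoptosis inhibitor gene, lost 7 of 18, and Cdkn2b, a cyclin-dependent kinase inhibitor gene, 6 of 13. T and NK cell genes lost 14 of 48 (29.2%), monocyte and macrophage genes 22 of 82 (26.8%), megakaryocyte genes 22 of 88 (25.0%) and B cell genes 6 of 27 (22.2%, against 37.8% of all control regions of the same widths). Stem cell genes lost 32 of 148 (21.6%), with 9 of 19 at Mecom and 4 of 7 at Mllt3, both regulators of stem cell self-renewal, and 5 of 31 at Meis1, a Hox cofactor gene. The neutrophil granule list, which also holds other neutrophil genes, lost 6 of 29 (20.7%). These included 2 of 2 at S100a8 and the single region of Csf3r, the G-CSF receptor gene. Ctsg lost 0 of 5, and Prtn3, Mmp8, Mmp9 and Cebpe 0 of 3 each. Without combined replicate 1, when 40.0% of all control regions were lost, the shares were 50.0% for T and NK cell, 41.5% for monocyte and macrophage, 42.0% for megakaryocyte, 48.1% for B cell, 35.8% for stem cell and 51.7% for neutrophil granule genes. The B cell and neutrophil lists thus lay above all regions in that setting, and also with the widest 50% of peaks (57.1% and 40.0% against 23.6%). At equal list length B cell genes lost 22.2% and neutrophil granule genes 7.14%, against 10.8% of all. The order of these 2 lists against the background thus rests on few regions and changed with the setting.

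Of the transcription factor lists, ETS factors lost 31 of 151 (20.5%), GATA factors and partners 28 of 117 (23.9%) and AP-1 factors 19 of 80 (23.8%). Only-both losses made up 12, 6 and 8 of these regions. Without combined replicate 1 the ETS share was 39.1%, without control replicate 2 31.6%, against 40.0% and 33.2% of all control regions. With the widest 50% of peaks, ETS and AP-1 factors lost 31.4% and 34.7%, above the 23.6% of all, and GATA factors and partners 20%. At equal list length the 3 shares were 12.2%, 10.9% and 6.67%, against 10.8% of all. The place of the ETS and AP-1 lists against the background thus changed with the setting. Jun, an AP-1 subunit gene, lost 10 of 23, of which 5 were lost only when both were perturbed. Fli1, an ETS factor gene of megakaryocytes and endothelium, lost 6 of 26. BAF complex genes lost 21 of 84 (25.0%), with 7 of 24 at Arid1b, and housekeeping genes 10 of 57 (17.5%, or 28.1% against 40.0% of all without combined replicate 1). The list of Utx and COMPASS genes lost 3 of 37 (8.11%), against 19.1% of all control regions of the same widths. It also holds genes of other COMPASS complexes, such as Kmt2a. Losses were 1 each at Kmt2a, Paxip1 and Wdr5, with 0 only when both were perturbed. The share moved with the libraries and list length but lay below that of all control regions in each setting run, with 18.4% against 40.0% of all control regions without combined replicate 1, 12.5% and 12.8% against 33.6% and 33.2% without control replicate 1 or 2, 17.4% against 23.6% with the widest 50% of peaks, and 8% against 10.8% at equal list length. These shares were not matched for position. Of all 12178 control regions within 1 kb of a gene end 875 were lost, so low loss was not particular to this list.

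**Figure D5:**
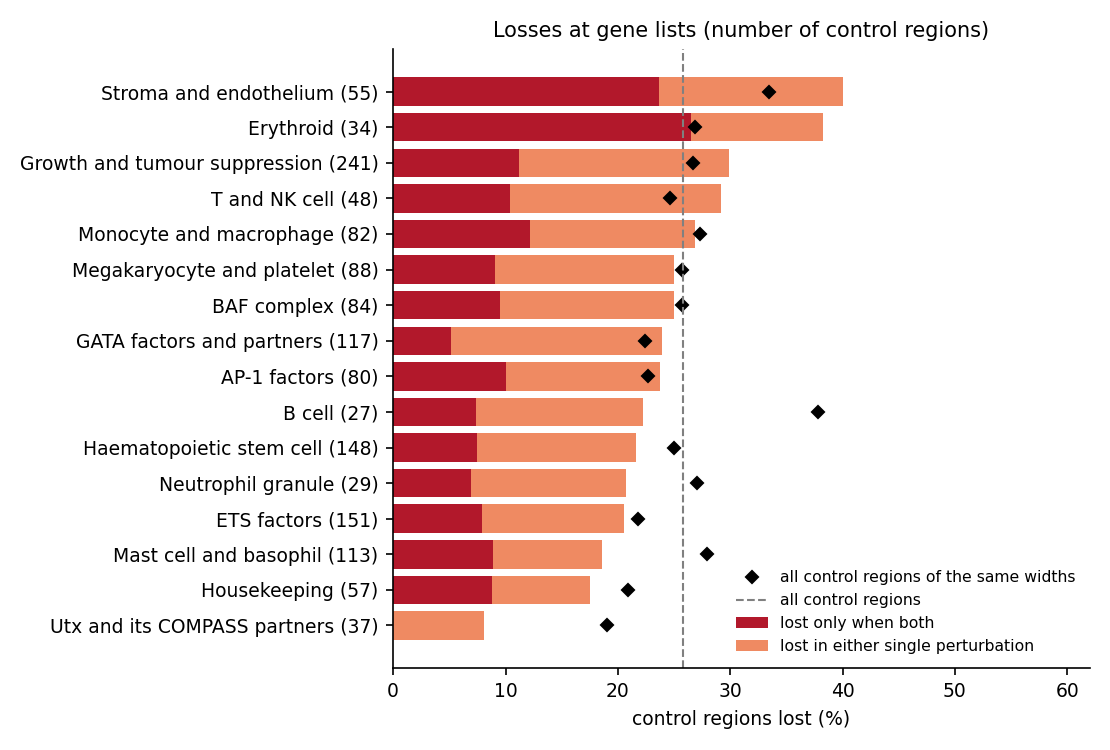
Share of control regions lost (horizontal, %) for each gene list (vertical, with its number of control regions), split into lost only when both were perturbed (dark) and lost in either (light). Diamonds give all control regions of the same widths and the dashed line the 25.8% of all control regions. Stroma and endothelium (40.0%) and erythroid genes (38.2%) lie right of their diamonds at 33.5% and 26.9%, and Utx and COMPASS genes (8.11%) left of 19.1%.

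Mast cell and basophil genes showed more gains than other lists, with 6 of 83 regions held by both combined libraries (7.23% against 1.17%), and lost 21 of 113 (18.6%), or 34.8% without combined replicate 1 and 29.6% without control replicate 2, when all control regions lost 40.0% and 33.2%. Cpa3, which encodes the mast cell carboxypeptidase, had 4 of these gains and lost 0 of 8 control regions, while Kit and Il1rl1, encoding receptors for stem cell factor and interleukin 33, had 1 each. At Cpa3 the gained region chr3:20218252-20218932 was absent from both controls, 731 and 256 bp wide in Utx KO empty, 543 bp in Utx WT with the guide replicate 1, absent from replicate 2, and 681 and 526 bp in combination. Each of the 4 gained Cpa3 regions was held by Utx WT with the guide in replicate 1 and not in replicate 2, and by Utx KO empty replicate 2. The gain at Cpa3 was thus shared with single perturbations.

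The same held for most gained regions, since 219 of 309 were held by both Utx KO empty libraries, 51 by both Utx WT libraries with the guide, and 32 by no single-perturbation library. At Ccn3, a secreted matricellular protein gene, 3 regions were gained. The widest, chr15:54745227-54746295, was 1354 and 1327 bp in Utx KO empty, 1028 and 1043 bp in combination and absent from all 4 Utx WT libraries. Tafa1, encoding a secreted chemokine-like protein, had 3 gained regions, each held by both Utx KO empty libraries. Trpm8, a cold-sensing ion channel gene, also had 3, and of these chr1:88298064-88299099 was held by both Utx WT libraries with the guide (468 and 759 bp), by both combined libraries (506 and 1036 bp) and by neither Utx KO empty library.

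Promoters under lost regions differed in sequence from those under kept ones. Of the 402, 155 lay under regions lost only when both were perturbed. Their median CpG number in the window of 300 bases was 7, equal to that of all 32851 promoters and below the 22 of the 12234 promoters under kept regions. RUNX letters were present in 25.4% of promoters under lost regions, 16.8% of all promoters and 11.8% of those under kept regions. Among promoters with 7 CpG or fewer, which makes the sets more alike, the shares were 37.0% (84 of 227), 21.7% and 23.3% (242 of 1038). In those same CpG-poor promoters GAGGAA was present in 41.0%, 30.9% and 39.5%, AGATAA in 16.3%, 16.7% and 17.1% and TGANTCA, the AP-1 letters, in 12.8% of those under lost regions, 11.2% of all and 135 of 1038 under kept regions. RUNX letters were thus more frequent under lost than kept regions at like CpG number, and the GATA, AP-1 and PU.1-type letters had similar shares. CCGGAA, another ETS core, was in 5.73% of CpG-poor promoters under lost regions and 11.8% under kept ones. The NF-Y letters CCAAT were in 31.3% of CpG-poor promoters under lost regions, 37.7% under kept ones and 38.8% of all. A match of letters is a description and not a binding site.

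Lost regions had a lost neighbour little more often than all control regions did, and neighbours were not matched for width or distance to gene ends. Of lost regions with another control region within 10 kb, 30.9% had a lost nearest neighbour, against 25.7% of kept and 27.3% of all control regions. At regions lost only when both were perturbed the nearest neighbour was itself of that class in 10.2% of cases and 9.35% for kept regions.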

How the data were processed

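Peak lists of 22 libraries as deposited by the authors were read for chromosome, start and end, an interval per line in bases. Other columns were not used, and the 2 input samples entered no comparison. The submitters' processing notes name Bowtie, Bowtie2, SICER and MACS2 and the build mm10, without roles or versions; thresholds are not given in the sources used here. ChIP intervals lie on a grid of 200 bp, and ATAC intervals are at least 200 bp wide. Depth per library is unknown, so neither counting intervals nor detection limits could be given. Between 0.0844% and 0.241% of intervals per ATAC list lay off chromosomes 1 to 19, X and Y and were dropped.

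Any overlap of 1 bp counted as holding a region. Each region took the closest gene span among 21883 protein-coding genes of RefSeq GRCm38.p6, and 317 of 318 members of 16 gene lists were matched, 1 by an older symbol. The members, lists and tests were chosen with earlier results of these data known. Named genes were the targeted and lineage regulators, the 10 genes with most lost regions and most regions lost only when both were perturbed, the 5 with most gains, the 3 widest regions of each class and up to 3 genes of each list; Epor, Gp9, Tfrc and Car2 and the list members beyond these were named after their values were seen. Some genes that the rule picks are not reported here. Values per library were compared by exact permutation tests, two-sided, except peak widths at the classes, for which a planned test was left out because the same calls chose the regions. Same-numbered libraries did not deviate together, with correlations of width differences from -0.0281 to 0.0437 over 24956 regions, so numbers were not used as pairs. The calling code was tested on simulated data. Alternatives were a stricter width limit, equal list length, 50% cover, merging over all 8 libraries, autosomes only, a 50 kb limit to genes, leaving out each library, and, chosen after seeing the data, width bands for lists, CpG-poor promoters and repeats of the H3K4me1 gap. Computation ran in Python 3.11.15 with scipy 1.17.1, pandas 2.3.3 and numpy 2.4.6, and plots were drawn with matplotlib 3.10.9.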

Additional observations from a re-analysis of the deposited data

How the results depend on the processing

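Keeping only the widest 50% of each list gave 5183 lost and 88 gained regions, a log2 ratio of 5.88 and 1929 regions lost only when both were perturbed. Equal list length gave 2793, 2053, 0.44 and 952, with 34.1% of lost regions lost only when both were perturbed. Leaving out 1 library at a time gave 11698 to 17497 lost regions, 451 to 2027 gained, log2 ratios of 3.04 to 5.24 and 3175 to 9582 regions lost only when both were perturbed, which were 28.1% to 54.8% of those lost. Losses outnumbered gains in each of these settings, and the fall in peak number ranged from -20982 to -14913. Covering 50% of a region, merging over all 8 libraries and autosomes alone moved the counts of lost, gained and only-both regions by less than 1.5 times. Counting a single group as having lost a region when 1 of its 2 libraries lacked it left 1684 regions, 15.0% of lost. The H3K4me1 difference between genotypes at regions lost only when both were perturbed lay between -12.8 and -8.22 percentage points over all settings run. Shares lost, over the 16 gene lists and all regions together, left their main 95% binomial interval in 46 of 170 comparisons with an alternative, and counts for single genes moved by over 1.5 times in 179 of 800. The intervals treat regions of the same libraries as independent and are wider for lists with fewer regions, so leaving them also depends on list size. The cause of these shifts was not tested.

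With same-numbered libraries taken as pairs, a replicate block, the lost and gained counts stay at 11252 and 309 by construction, the regions lost only when both were perturbed number 1684 (15.0%), and the peak difference of -17947.5 has an exact p of 0.5.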
